A study of Rattus norvegicus with 9 samples.

Results

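The 8 genes described here are rat genes of cholesterol synthesis and its control, namely Hmgcs1, Fdps, Fdft1, Sqle, Lss, Dhcr7, Srebf2 and Insig1. They were taken by name from a list drawn up with earlier results of these data known, and all 8 were found among the 20645 genes of the expression table. All 8 also passed the filter for testing, a mean of at least 1 FPKM (mapped fragments corrected for library total and gene length) over the 9 libraries, which left 12958 genes. RNA was sequenced from INS-1E cells, a single insulin-secreting line derived from a rat insulinoma, in 3 groups of 3 replicates after 24 h. BSA cells received the albumin carrier alone, PA cells received 0.5 mM palmitic acid, a saturated fatty acid, and PA + C3G cells received the same palmitic acid with 50 µM cyanidin-3-O-glucoside, an anthocyanin pigment of plants. The sample titles name the groups only as control, palmitic acid treated and cyanidin-3-O-glucoside treated. The BSA of the control, the palmitic acid given along with C3G and the doses are taken from the study's methods. No C3G group without PA was analysed here, so C3G was seen only on top of PA. The study's methods speak of biological replicates for its experiments in general, while the labels only number the libraries. The tests below therefore set differences between groups against the spread between these libraries, whatever its source.

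Animal cells build cholesterol from acetyl-CoA through mevalonate, farnesyl diphosphate, squalene and lanosterol. When sterols in the endoplasmic reticulum are low, the escort protein SCAP carries SREBP2, the product of Srebf2, to the Golgi, where proteases release a transcription factor that binds sterol regulatory elements near genes of the pathway. When sterols are plentiful, INSIG proteins hold SCAP and SREBP2 in the endoplasmic reticulum, and Insig1 is itself a target of SREBP factors. In beta cells, cholesterol is known for its part in the membranes of insulin granules and in insulin release.

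The promoters of the 4 members that were lower with C3G than with PA alone are shown because these genes moved in both treatment comparisons. RefSeq promoter windows of the GRCr8 build were matched for 6 of the 8 members, and Sqle and Fdft1 had no entry. The 250 bases before each RefSeq start are printed 5′ to 3′ on the strand of the gene, with CCAAT, the box bound by NF-Y, or its reverse complement ATTGG in capitals. The Insig1 stretch is chr4:8057770-8058019 on the minus strand, that of Hmgcs1 is chr2:53382054-53382303 on the plus strand, that of Fdps is chr2:176804817-176805066 on the minus strand and that of Srebf2 is chr7:115543057-115543306 on the plus strand.
Insig1: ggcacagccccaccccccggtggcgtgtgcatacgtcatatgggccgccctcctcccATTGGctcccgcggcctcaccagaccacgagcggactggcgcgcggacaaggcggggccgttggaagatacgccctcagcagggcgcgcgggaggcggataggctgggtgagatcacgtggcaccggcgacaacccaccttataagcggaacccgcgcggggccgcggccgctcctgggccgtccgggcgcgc
Hmgcs1: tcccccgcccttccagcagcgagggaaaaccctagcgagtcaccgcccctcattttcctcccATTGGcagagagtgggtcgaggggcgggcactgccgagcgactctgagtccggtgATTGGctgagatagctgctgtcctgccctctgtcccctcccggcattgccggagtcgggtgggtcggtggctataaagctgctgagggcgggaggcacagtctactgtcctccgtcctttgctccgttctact
Fdps: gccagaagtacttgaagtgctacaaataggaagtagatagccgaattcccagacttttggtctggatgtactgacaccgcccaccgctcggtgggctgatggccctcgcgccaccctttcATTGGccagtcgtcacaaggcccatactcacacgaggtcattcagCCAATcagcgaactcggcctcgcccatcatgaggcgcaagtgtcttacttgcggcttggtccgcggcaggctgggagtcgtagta
Srebf2: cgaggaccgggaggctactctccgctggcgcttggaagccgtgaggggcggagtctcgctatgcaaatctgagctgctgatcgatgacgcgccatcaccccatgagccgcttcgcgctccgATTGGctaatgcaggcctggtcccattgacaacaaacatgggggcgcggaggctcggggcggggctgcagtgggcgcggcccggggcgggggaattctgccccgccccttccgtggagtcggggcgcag

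Motifs were searched on both strands of the whole windows, which run from 250 bases before to 50 bases after the start. CCAAT was found in 5 of the 6 windows, those of Insig1, Hmgcs1, Fdps, Srebf2 and Lss but not that of Dhcr7, and in 37.5% of all 33469 windows of the table. GGGCGG, the box bound by Sp1, was found in 6 of 6 and in 33.1% of all windows. Its 2 matches in the Dhcr7 window overlap each other by a base. These 2 boxes were also counted by gene in the 6 lists of other sterol genes described below. CCAAT and GGGCGG were in 7 and 8 of 9 genes from lanosterol to cholesterol, 3 and 3 of 4 mevalonate enzymes, and 4 and 4 of 5 uptake genes. They were in 5 and 4 of 7 isoprenoid, 3 and 5 of 9 sterol sensing, and 2 and 2 of 4 storage and export genes. The E-box CACGTG was found in 1 of 6, at 79 to 74 bases before the start of Insig1, and in 6.42% of all windows. TCACNCCAC, a core of the sterol regulatory element, was found in 0 of 6 and in 1.12% of all windows. Only exact matches to this string were counted, so whether the windows hold other forms of the element was not tested. The shares of all windows cover every RefSeq window, whether or not its gene was tested here, and were not matched for base content. In the 6 members, G and C made up 56.8% (Fdps) to 72.8% (Insig1) of the 250 bases before the start. The 4 windows printed carry their CCAAT boxes between 193 and 81 bases before the start, with a pair each in Hmgcs1 and Fdps and a single one each in Insig1 and Srebf2.

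**Figure D1:**
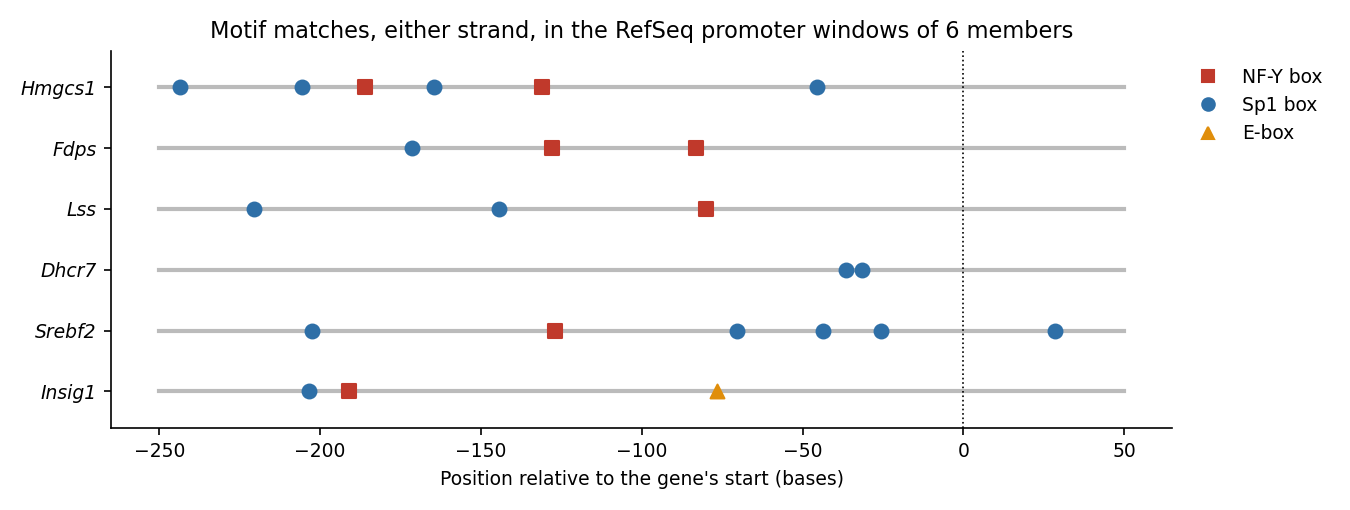
Matches of CCAAT (NF-Y box, red squares), GGGCGG (Sp1 box, blue circles) and CACGTG (E-box, orange triangle) on either strand of the RefSeq promoter windows of 6 members. The horizontal axis gives bases relative to the gene's start at 0. CCAAT is absent only from the Dhcr7 row, and the single CACGTG lies in that of Insig1.

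The library totals of estimated counts ranged from 45559993 to 66730721 (median 62553661), and library pairs correlated at 0.981 to 0.985 within groups and 0.943 to 0.977 across groups on log2(FPKM + 1), over genes that are not independent replicates. All 8 beta-cell markers were measured, and their summed level was 45506 to 46240 FPKM with BSA, 19083 to 19689 with PA and 41935 to 47737 with PA + C3G. Of 11 markers of other cell types in the table, 2 had a mean of at least 1 FPKM. They were Gcg, the alpha-cell hormone gene, and Sox9, a duct marker. The summed alpha-cell markers ranged from 8.28 to 31.2 FPKM with BSA, 1.35 to 6.02 with PA and 4.17 to 22.5 with PA + C3G, and the summed duct markers from 2.52 to 2.72, 4.64 to 6.04 and 3.05 to 3.87. Their part in the results below was not tested. The summed acinar, stromal, delta-cell and immune markers stayed under 1 FPKM in each library.

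PA raised most of the 8 genes, and C3G added to PA brought 4 of them part or most of the way down. PA was higher than BSA for 6 members at an adjusted p-value under 0.05 in edgeR's quasi-likelihood test with Benjamini-Hochberg adjustment over all genes tested, and lower for 0, against 25.8% of all genes higher and 25.2% lower. PA + C3G was lower than PA alone for 4 members and higher for 0, against 10.2% of all genes lower and 11.1% higher. PA + C3G was still higher than BSA for 5 members and lower for 0, against 19.0% of all genes higher and 17.9% lower. Under DESeq2 instead of edgeR, the members higher and lower numbered 6 and 0, 0 and 5, and 5 and 0 in these comparisons. DESeq2 also called more genes over all, at 6885, 3323 and 5207 against 6614, 2752 and 4783 in edgeR. Of the DESeq2 calls, 3463, 1722 and 2611 were higher. The PA libraries serve in the first and the second of these comparisons and the BSA libraries in the first and the third, so the comparisons are not independent of one another. Sqle and Fdft1 passed the test in none of the 3. In bulk RNA, a change in the number of cells that express a gene and a change in RNA per cell cannot be told apart. The summed beta-cell markers were low with PA and near the BSA level with PA + C3G, a sum led by Ins1, an insulin gene, at means of 26650, 13744 and 32002 FPKM. Taken one by one, 7 of the 8 markers lay lower in all PA than in all BSA libraries. The exception was Nkx6-1, with means of 50.0, 52.1 and 76.0 FPKM with BSA, PA and PA + C3G. Of the 8, 4 were still lower in all PA + C3G than in all BSA libraries. They were Mafa, Slc30a8, Ins2, the other insulin gene (means of 13778 FPKM with BSA, 1871 with PA and 7008 with PA + C3G), and Slc2a2, a glucose transporter (means of 510, 103 and 172 FPKM). The part of these markers in the changes was not tested.

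**Figure D2:**
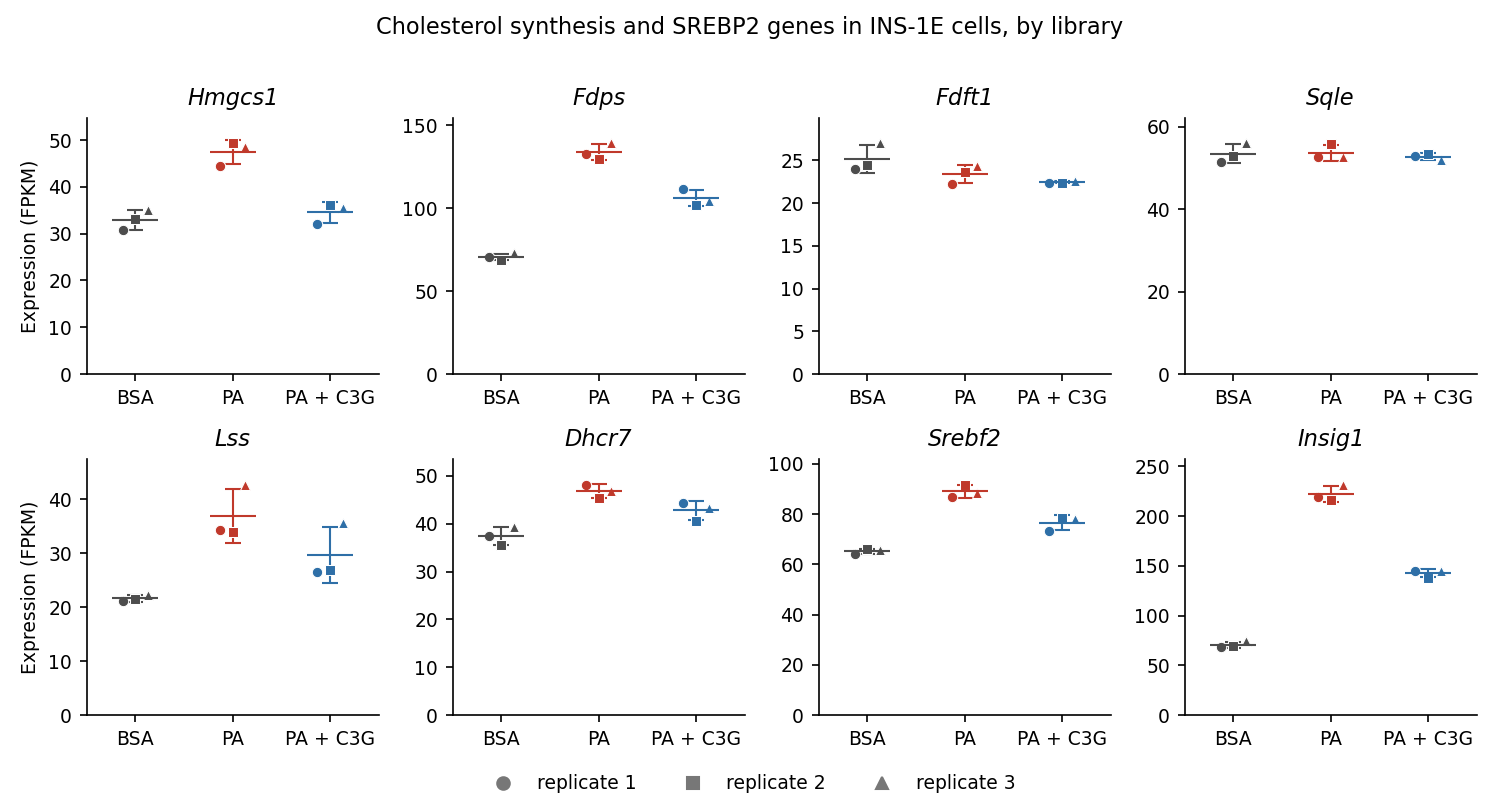
Expression of the 8 members in FPKM (vertical axes from 0, scaled per gene) in the BSA, PA and PA + C3G groups. Each point is a library, marked by replicate number, with a line at the group mean and bars of 1 SD (n = 3). The PA libraries lie above the BSA libraries for Hmgcs1, Fdps, Lss, Dhcr7, Srebf2 and Insig1, and the groups overlap for Fdft1 and Sqle except PA + C3G against BSA for Fdft1.

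Hmgcs1 encodes the cytosolic HMG-CoA synthase, which makes HMG-CoA on the way to mevalonate. It lies at chromosome 2 from 52431601 to 52445055 in the authors' table, whose build is not given in the sources used here. Its level was 30.8, 33.2 and 35.0 FPKM in the BSA libraries, 44.4, 49.3 and 48.6 with PA, and 32.0, 36.2 and 35.5 with PA + C3G. The PA libraries stood above all others, and the PA + C3G libraries overlapped those of BSA. Mean levels were 33.0 ± 2.12, 47.4 ± 2.63 and 34.6 ± 2.24 FPKM (SD, n = 3 each). Hmgcs1 was 1.46-fold higher with PA than with BSA (log2 fold change 0.55, SE 0.07, adjusted p = 8.42e-05). It was 1.34-fold lower with C3G added than with PA alone (log2 fold change −0.42, SE 0.07, adjusted p = 0.00238). PA + C3G did not pass the test against BSA, with a log2 fold change of 0.13 and a 95% interval of −0.02 to 0.28 (adjusted p = 0.158). With the replicate number as a block it did pass, at the same 0.13 (adjusted p = 0.0226, and 0.0226 to 0.476 over all alternatives).

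Fdps encodes farnesyl diphosphate synthase, whose product feeds sterols and, along other branches, dolichol, ubiquinone and protein prenylation. It lies at chromosome 2 from 188392858 to 188412362 and overlaps a U6 small nuclear RNA gene of the table, so reads there could be split between them. Fdps stood at 70.6, 68.8 and 72.6 FPKM with BSA, at 133, 130 and 139 with PA and at 111, 102 and 105 with PA + C3G. The groups did not overlap, with PA highest and PA + C3G between. The means were 70.7 ± 1.89, 134 ± 4.69 and 106 ± 4.90 FPKM. It was 1.92-fold higher with PA than with BSA (log2 fold change 0.94, SE 0.04, adjusted p = 1.87e-07). It was 1.23-fold lower with C3G than with PA alone (−0.30, SE 0.04, adjusted p = 0.00173) and still 1.56-fold higher than BSA (0.64, SE 0.04, adjusted p = 3.94e-06).

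Of the 4 members at the squalene and sterol steps, Lss and Dhcr7 passed the test with PA, and Fdft1 and Sqle did not. Fdft1 encodes squalene synthase, the first step committed to sterols, at chromosome 15 from 46339249 to 46367302. Its level was 24.0, 24.4 and 27.0 FPKM with BSA, 22.2, 23.6 and 24.3 with PA and 22.3, 22.4 and 22.6 with PA + C3G. The PA libraries overlapped both other groups, while the PA + C3G libraries lay just below those of BSA. The log2 fold change was −0.08 for PA against BSA, with a 95% interval of −0.20 to 0.04 (adjusted p = 0.243), and −0.02 for PA + C3G against PA, with an interval of −0.14 to 0.10. For PA + C3G against BSA it was −0.10, with an interval of −0.22 to 0.02 (adjusted p = 0.166). That comparison passed the test after rescaling to equal FPKM sums (−0.16, adjusted p = 0.0395) and with limma on log2(FPKM + 1) (−0.16, adjusted p = 0.0466), where the median of all genes moved to −0.05 in each, and its adjusted p ran from 0.0395 to 0.416 over all alternatives.

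Sqle encodes squalene epoxidase, a control point of the pathway, at chromosome 7 from 99609191 to 99624732. Its level was 51.4, 52.9 and 55.9 FPKM with BSA, 52.6, 55.9 and 52.5 with PA and 52.8, 53.5 and 51.9 with PA + C3G. All 3 groups overlapped, with means of 53.4 ± 2.29, 53.7 ± 1.91 and 52.7 ± 0.763 FPKM. The log2 fold change was 0.03 for PA against BSA (95% interval −0.07 to 0.13, adjusted p = 0.589) and 0.01 for PA + C3G against PA (−0.09 to 0.11, adjusted p = 0.880). After rescaling to equal FPKM sums the second became −0.08, where the median of all genes moved to −0.09, and neither setting passed the test.

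Lss encodes lanosterol synthase, which closes the sterol rings, at chromosome 20 from 12842884 to 12870497. Its level was 21.2, 21.4 and 22.3 FPKM with BSA, 34.3, 33.9 and 42.7 with PA and 26.5, 26.9 and 35.6 with PA + C3G. Replicate 3 was the highest in each group, only narrowly with BSA, and the PA + C3G libraries overlapped those of PA but not those of BSA. Lss was 1.74-fold higher with PA than with BSA (log2 fold change 0.80, SE 0.12, adjusted p = 0.000353). It was 1.43-fold higher with PA + C3G than with BSA (0.52, SE 0.12, adjusted p = 0.00718). PA + C3G against PA gave −0.28 with a 95% interval of −0.55 to −0.02, which did not pass the test after adjustment (adjusted p = 0.125). This comparison passed without PA + C3G replicate 3 (−0.43, adjusted p = 0.0190), with the replicate number as a block (−0.28, adjusted p = 0.0204) and with DESeq2 (−0.28, adjusted p = 0.0293), and it was −0.17 without PA replicate 3 (adjusted p = 0.378). Its adjusted p ran from 0.0190 to 0.378 over all alternatives.

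Dhcr7 encodes 7-dehydrocholesterol reductase, a last step to cholesterol, at chromosome 1 from 217018916 to 217034904. Its level was 37.5, 35.6 and 39.2 FPKM with BSA, 48.2, 45.3 and 46.9 with PA and 44.4, 40.6 and 43.3 with PA + C3G. The 3 groups did not overlap, although the highest PA + C3G library came close to the lowest PA library. Dhcr7 was 1.27-fold higher with PA than with BSA (log2 fold change 0.35, SE 0.05, adjusted p = 0.000269) and 1.19-fold higher with PA + C3G than with BSA (0.25, SE 0.05, adjusted p = 0.00302). PA + C3G against PA gave −0.09 with a 95% interval of −0.20 to 0.02 (adjusted p = 0.222). After rescaling to equal FPKM sums, which moved the median of all genes to −0.09, this became −0.18 and passed the test (adjusted p = 0.0280, and 0.0280 to 0.459 over all alternatives).

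The regulators changed as well. Srebf2, which encodes the transcription factor SREBP2, lies at chromosome 7 from 123381077 to 123438603. Its level was 64.0, 66.1 and 65.7 FPKM with BSA, 86.9, 91.8 and 88.4 with PA and 73.2, 78.4 and 78.3 with PA + C3G. The 3 groups did not overlap, and PA + C3G lay between BSA and PA. The means were 65.2 ± 1.10, 89.1 ± 2.50 and 76.6 ± 2.97 FPKM. Srebf2 was 1.39-fold higher with PA than with BSA (log2 fold change 0.47, SE 0.04, adjusted p = 7.29e-06), 1.13-fold lower with C3G than with PA alone (−0.18, SE 0.04, adjusted p = 0.0115) and 1.23-fold higher with PA + C3G than with BSA (0.29, SE 0.04, adjusted p = 0.000316). These are levels of the mRNA, and the released form of SREBP2 was not measured by it.

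Insig1 encodes the retention protein of the SCAP and SREBP2 complex and lies at chromosome 4 from 342302 to 350515. Its level was 68.6, 69.7 and 74.4 FPKM with BSA, 219, 216 and 232 with PA and 145, 138 and 145 with PA + C3G. The 3 groups stood far apart, and each PA library was between 3.04 and 3.27 times the BSA mean while each PA + C3G library was between 1.95 and 2.05 times. The means were 70.9 ± 3.10, 222 ± 8.37 and 143 ± 3.92 FPKM. Insig1 was 3.19-fold higher with PA than with BSA (log2 fold change 1.67, SE 0.04, adjusted p = 1.13e-08), the 126th highest log2 fold change of the 12958 genes tested. It was 1.52-fold lower with C3G than with PA alone (−0.60, SE 0.04, adjusted p = 5.90e-05) and 2.10-fold higher with PA + C3G than with BSA (1.07, SE 0.04, adjusted p = 2.45e-07).

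**Figure D3:**
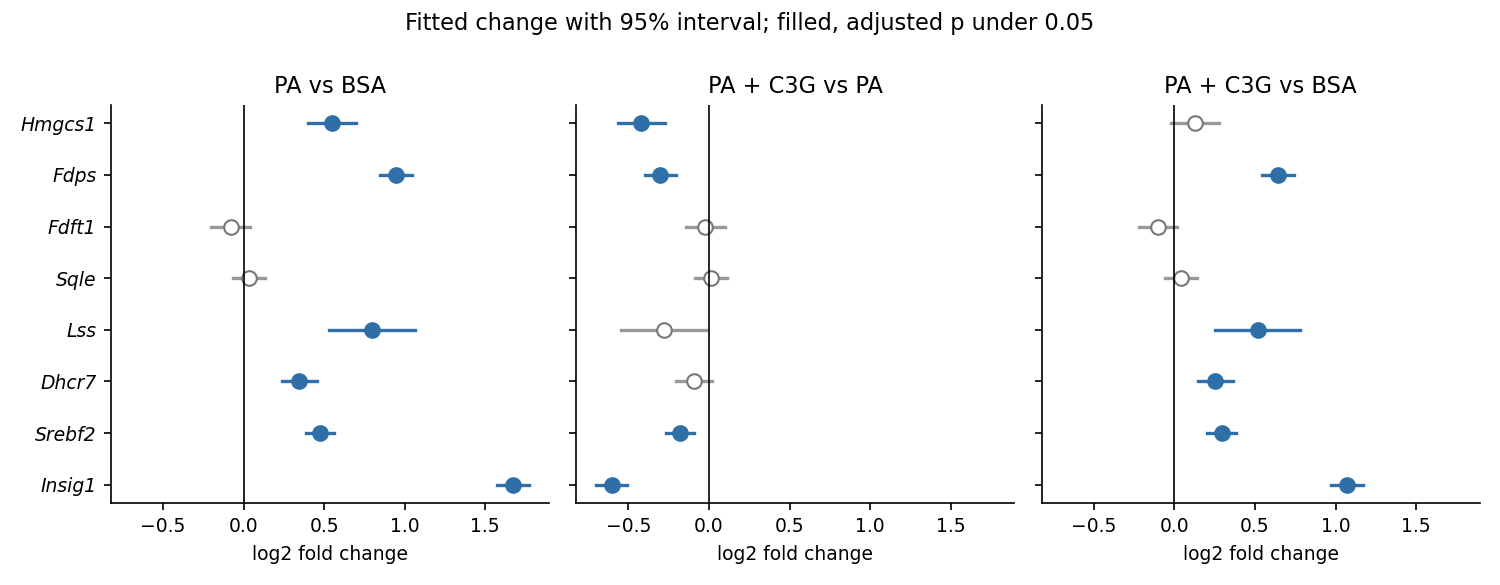
Fitted log2 fold change (horizontal axis) of each member in the 3 comparisons, with 95% intervals from edgeR. Filled points have an adjusted p-value under 0.05. With PA the changes run from −0.08 for Fdft1 to 1.67 for Insig1, and with C3G added to PA from −0.60 for Insig1 to 0.01 for Sqle.

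Over the 8 members, the median log2 fold change was 0.51 for PA against BSA, −0.23 for PA + C3G against PA and 0.27 for PA + C3G against BSA, beside medians of 0.00, −0.00 and 0.01 over all genes tested. Only Insig1 among the members had a fold above 2 with an unadjusted p-value under 0.05. It did so in PA against BSA and in PA + C3G against BSA, where 7.56% and 4.63% of all genes did, and 0 members did in PA + C3G against PA, where 1.13% of all genes did. The FPKM of the groups did not overlap for 6 of 8 members in PA against BSA, 5 of 8 in PA + C3G against PA and 6 of 8 in PA + C3G against BSA, against 59.9%, 39.5% and 50.3% of all genes. Each of the 15 member calls held in all 19 alternative analyses.

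The order of levels, in FPKM and hence per length of gene, was led by Insig1 and Fdps in each group. In the BSA group Insig1 and Fdps overlapped, at 70.9 and 70.7 FPKM, followed by Srebf2, Sqle, Dhcr7, Hmgcs1, Fdft1 and Lss, where neighbours did not overlap. With PA, Insig1 stood clear of Fdps, Hmgcs1 and Dhcr7 overlapped at 47.4 and 46.8 FPKM, and Lss moved above Fdft1. With PA + C3G the order was that of BSA except that Lss stayed above Fdft1 and overlapped Hmgcs1, at 29.7 against 34.6 FPKM.

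The remaining genes of the pathway were taken from lists of known function, and their counts stand beside 25.8% of all genes higher and 25.2% lower with PA, 11.1% higher and 10.2% lower with C3G against PA alone, and 19.0% higher and 17.9% lower with PA + C3G against BSA. Several counts are near these shares, such as 3 higher and 2 lower of 9 with PA in the isoprenoid branch. Idi1, Tm7sf2, Pdss1, Srebf1, Scap and Npc1 overlap other genes of the table, so reads there could be split. Of the other 6 enzymes that make mevalonate and isopentenyl diphosphate, 3 were higher and 1 lower with PA than with BSA, and 0 were higher and 3 lower with C3G than with PA alone. Mvd, the mevalonate diphosphate decarboxylase, was 1.86-fold higher with PA (log2 fold change 0.89, adjusted p = 0.000145) and 1.56-fold lower with C3G added (−0.64, adjusted p = 0.00469). Pmvk, the kinase before it, was 1.55-fold higher with PA (0.63, adjusted p = 7.91e-05). Idi1, the isomerase after it, was 1.21-fold lower with PA (−0.28, adjusted p = 0.00613). Of the 3 calls of higher level with PA, 1 was lost in 14 of the 19 alternatives. Against BSA, PA + C3G was higher for 1 of the 6 and lower for 1.

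Between lanosterol and cholesterol, 9 other enzymes or cofactors were tested, and the expression of 1 listed gene was not analysed here. With PA, 5 were higher and 1 lower than with BSA. Tm7sf2, a sterol C14 reductase, was 2.02-fold higher (log2 fold change 1.01, adjusted p = 2.83e-07), Cyp51, the lanosterol demethylase, was 1.42-fold higher (0.51, adjusted p = 1.94e-05), and Msmo1 and Sc5d, oxidases of sterol intermediates, were 1.27-fold and 1.28-fold higher. Ebp, the sterol isomerase, was 1.50-fold lower (−0.59, adjusted p = 0.00263). With C3G, 0 of the 9 were higher and 1 was lower than with PA alone. Against BSA, PA + C3G was higher for 5 of the 9 and lower for 0, including Tm7sf2 (0.92, adjusted p = 1.14e-06).

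In the isoprenoid branch that leaves the pathway at farnesyl diphosphate, 3 of 9 genes were higher and 2 lower with PA than with BSA. The pair that forms the dolichol-making prenyltransferase was among them, with Dhdds 2.42-fold higher (log2 fold change 1.28, adjusted p = 3.23e-08) and Nus1 1.57-fold higher (0.65, adjusted p = 6.82e-06). Fnta, a subunit of protein farnesyltransferase, was 1.20-fold higher and Pdss1, of ubiquinone side-chain synthesis, was 1.53-fold lower. With C3G, Dhdds was 1.69-fold lower than with PA alone (−0.76, adjusted p = 1.82e-05) and Nus1 was 1.22-fold lower (−0.29, adjusted p = 0.00562), so that 2 of the 9 were lower and 1 higher. Against BSA, PA + C3G was higher for 3 of the 9 and lower for 1.

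Among 12 tested genes of sterol sensing and SREBP processing, of 13 listed, 6 were higher and 1 lower with PA than with BSA. Srebf1, whose product is the SREBP of fatty acid synthesis, was 2.87-fold higher (log2 fold change 1.52, adjusted p = 2.13e-08), and Nr1h2, an oxysterol receptor, was 1.32-fold higher. Rnf139, a ubiquitin ligase of the endoplasmic reticulum that binds INSIG proteins, was 1.18-fold lower. With C3G, 4 were lower and 1 higher than with PA alone. Srebf1 was 1.33-fold lower (−0.41, adjusted p = 0.000401), and Rnf145, another such ligase, was 1.20-fold higher (0.26, adjusted p = 0.00317). Against BSA, PA + C3G was higher for 4 and lower for 1, with Srebf1 2.15-fold higher. Scap averaged 18.9 ± 0.552, 20.7 ± 1.25 and 19.4 ± 1.15 FPKM, and Insig2 averaged 15.1 ± 3.30, 17.7 ± 0.549 and 17.6 ± 0.819, in BSA, PA and PA + C3G. In PA against BSA, Scap passed the test narrowly (0.16, adjusted p = 0.0489) and Insig2 did not (0.25, adjusted p = 0.155). Neither passed in the other comparisons.

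Of 8 genes of cholesterol uptake and intracellular transport, 5 were higher and 1 lower with PA than with BSA. Npc2, a lysosomal cholesterol carrier, was 4.07-fold higher (log2 fold change 2.02, adjusted p = 7.13e-08), and Npc1, its membrane partner, was 1.68-fold higher. Scarb1, an HDL receptor, was 1.61-fold higher, and Tmem97, a partner of NPC1, was 1.29-fold higher. Mylip, a ubiquitin ligase induced by oxysterol receptors, was 1.77-fold lower. With C3G, 3 were lower and 1 higher than with PA alone, with Npc2 1.61-fold lower (−0.69, adjusted p = 0.000454) and Npc1 1.22-fold lower. Against BSA, PA + C3G was higher for 4 and lower for 1, and Npc2 was still 2.53-fold higher. Of 5 tested genes of cholesterol storage and export, 2 were higher and 1 lower with PA than with BSA, including Abca1, a cholesterol exporter, with a log2 fold change of 0.93. With C3G 1 was higher and 1 lower than with PA alone. Abcg1, another exporter, was 1.19-fold higher, and Abca1 was 1.19-fold lower (−0.25, adjusted p = 0.0350). Against BSA, PA + C3G was higher for 3 of the 5 and lower for 0.

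Over all 6 lists, 24 of 49 genes were higher and 7 lower with PA than with BSA, with a median log2 fold change of 0.16. With C3G, 4 were higher and 14 lower than with PA alone, with a median of −0.05, and PA + C3G was higher for 20 and lower for 4 against BSA, with a median of 0.10. The count lower with C3G depended on single libraries, and was 6 without PA replicate 3, 9 without PA + C3G replicate 1 and 8 without PA + C3G replicate 3. Calls over all genes, in either direction, fell in the same fits as well, from 2752 to 1718, 2010 and 1957. Of these, 921, 1050 and 1029 were higher. The balance of directions with C3G also depended on the scaling over all genes. In edgeR 1436 of 2752 called genes were higher than with PA alone, against 775 of 3300 after rescaling to equal FPKM sums and 1065 of 2701 with limma on log2(FPKM + 1). For PA + C3G against BSA these counts were 2462 of 4783, 1891 of 4929 and 1850 of 4941. The rescaling moved the median of all genes to −0.09 for PA + C3G against PA, and the members lower there numbered 5 under it.

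**Figure D4:**
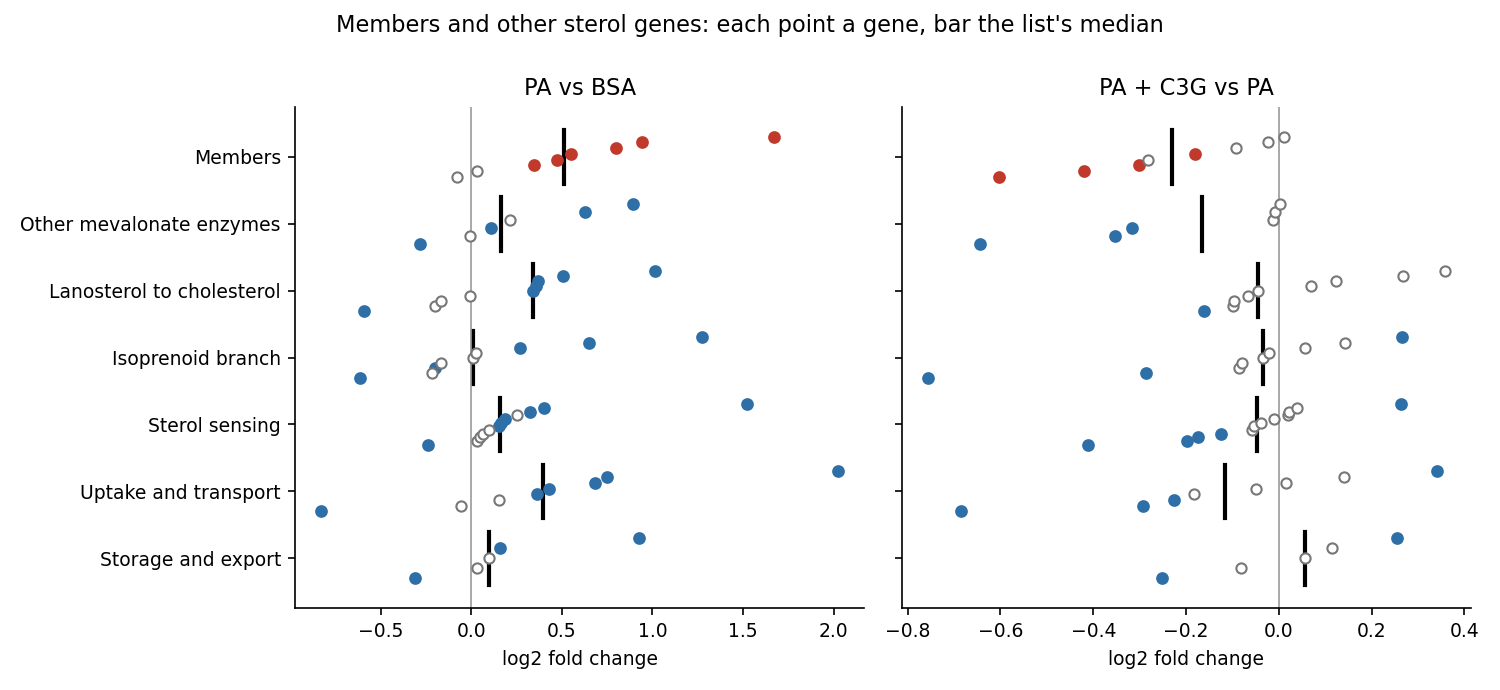
Log2 fold change (horizontal axes, scaled per panel) of the members (red when called) and of 6 lists of other sterol genes (blue when called) for PA against BSA and for PA + C3G against PA. Each point is a gene, open points have an adjusted p-value of 0.05 or more, and the bar is the median of the list. The medians of the members are 0.51 and −0.23, and those of the 6 lists together are 0.16 and −0.05.

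In the KEGG annotation of the table, to be read against the same shares of all genes, the counts were as follows. In Steroid biosynthesis, 11 genes besides the members were tested, of which 7 were higher and 1 lower with PA than with BSA, 0 were higher and 2 lower with C3G than with PA alone, and 6 were higher and 0 lower with PA + C3G than with BSA. In Terpenoid backbone biosynthesis, 18 genes besides the members were tested, of which 6 were higher and 2 lower with PA, 0 were higher and 5 lower with C3G, and 5 were higher and 2 lower with PA + C3G against BSA. Several genes belong both to these sets and to the lists above.

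The mean profile of the 8 members, on log2 CPM relative to the BSA mean of each gene, lay at 0.59 with PA and 0.35 with PA + C3G. The 5 other genes nearest to it, by root mean square difference over the 9 libraries, were Usp3 at 0.0383, Washc2c at 0.0395, Tcf25 at 0.0429, Tmem131l at 0.0434 and Arl1 at 0.0444. None of these was on a sterol list. These genes were the closest of all tested genes to an average, so their distances are not comparable with those between members. Among the members, Dhcr7 and Srebf2 were the nearest pair, at 0.108, followed by Sqle and Fdft1 at 0.113 and by Hmgcs1 and Srebf2 at 0.114. Insig1 was farthest from the rest, with Fdps nearest to it at 0.489. Among all genes tested, looked up after these values were seen, the nearest single gene was Manf for Insig1 at 0.0729, Marc2 for Fdps at 0.0512 and Golga1 for Srebf2 at 0.0275.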

How the data were processed

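Polyadenylated RNA of 9 INS-1E libraries was measured, 3 each for BSA, PA and PA + C3G. The authors deposited estimated counts per gene, which were already whole numbers, and FPKM, scaled by gene length and mapped fragments. The submitters' processing notes name cutadapt 1.9, HISAT2 2.0.4, StringTie 1.3.4d, DESeq2 and edgeR without their roles. The genome build, and whether counting used strand, are not given in the sources used here. Low counts pile up at 4 (2.44 times the mean number at 3 and 5), so sampling error may be larger than the totals imply. Dividing by 4 was therefore tried.

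Genes averaging 1 FPKM or more were tested with edgeR 4.0.16 (R 4.3.3) by glmQLFit and glmQLFTest after TMM normalization, in 1 fit to all 9 libraries, with Benjamini-Hochberg adjustment over 12958 genes. The procedure was tested on simulated data. Members, lists and the naming rule (all members, any gene of the pathway lists, the 5 nearest profiles) were chosen with earlier results of these data known. Some listed genes count in their list but are not reported here by name. The alternatives tried were size factors by median ratio, DESeq2 1.42.0, rescaling to equal FPKM sums, a filter at 5 FPKM or none, only the groups compared, the replicate block, limma 3.58.1 on log2(FPKM + 1) and log2(FPKM + 0.1), counts divided by 4, and leaving out each library.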

Additional observations from a re-analysis of the deposited data

How the results depend on the processing

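The counts of members higher and lower stayed at 6 and 0 for PA against BSA in every alternative run. For PA + C3G against BSA, 1 member, Fdft1, became lower with libraries rescaled to equal FPKM sums, with limma on log2(FPKM + 1) and with limma on log2(FPKM + 0.1). Signs that flipped belonged to values near 0. Sqle in PA against BSA ran from −0.0044 to 0.0578 over the fits that left out a library. Sqle in PA + C3G against PA was −0.0769 on rescaling and −0.0237 and −0.0240 with limma at the larger and smaller pseudocount, and ran from −0.0071 to 0.0464 with a library left out. Sqle in PA + C3G against BSA was −0.0158 on rescaling and −0.0169 and −0.0172 with limma. Fdft1 in PA + C3G against PA ran from −0.0613 to 0.0025 with a library left out. Of the pathway lists in PA + C3G against PA, 2 genes were higher and 19 lower on rescaling, against 4 and 14, and with a library left out 2 to 5 were higher and 6 to 14 lower. Calls over all genes in that comparison ran from 1718 to 2838 with a library left out, against 2752. The cause of these shifts was not tested.

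Over all genes, deviations from the group mean correlated at −0.09 to 0.08 between libraries of the same number over 9 pairs, with 0 pairs over 0.1. Of the 3 libraries of another group, a library was closest to that of its own number in 9 of 18 cases. These checks did not settle whether the numbers pair the libraries, and the main fit did not pair them. Most members kept some order by number in FPKM. Hmgcs1, Srebf2 and Fdft1 were lowest in replicate 1 of each group, and Fdps and Dhcr7 in replicate 2. Insig1 and Lss were highest in replicate 3 of each group, and Sqle kept no such order. The replicate block gave 6843, 3118 and 5058 calls over all genes, against 6614, 2752 and 4783 without it, in PA against BSA, PA + C3G against PA and PA + C3G against BSA. Among the members it added Lss (lower in PA + C3G than in PA) and Hmgcs1 (higher in PA + C3G than in BSA) and took away none. What can be said of Sqle and Fdft1 is limited to their 95% intervals.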
